A study of Mus musculus with 10 samples.

Results

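Chemokine ligands and chemokine receptors were followed in hearts of doxorubicin-treated female mice. The genes were chosen by name: protein-coding genes in the GENCODE annotation of GRCm39 whose symbol begins with Ccl, Cxcl, Ccr or Cxcr and a number. This gave 57 of the 78298 genes in the deposited table, 40 ligands and 17 receptors, and 32 of the 57 had enough counts to be tested. Messenger RNA was measured by bulk sequencing of whole hearts, from 5 hearts labelled wild type and 5 whose label gives a germline knockout of p38δ. Both groups were on a C57BL/6J background and had been given doxorubicin, an anthracycline cancer drug that injures heart muscle, as 1 intraperitoneal dose of 30 mg/kg, 72 h before collection. No untreated heart was analysed here, so no value below measures the effect of the drug. The knockout was present in every cell of the animal, and neither the age of the mice nor the deleted exons are in the labels.

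Chemokines are small secreted proteins that guide leukocytes along concentration gradients. They are grouped as CC or CXC ligands by the spacing of their first cysteines, and they act on G protein-coupled receptors named CCR and CXCR. In the injured heart, Ccl2 and its relatives draw monocytes through Ccr2, Cxcl1, Cxcl2 and Cxcl5 draw neutrophils through Cxcr2, and Cxcl9 and Cxcl10 draw T cells through Cxcr3. Cxcl12, in contrast, is made constitutively by stromal and vascular cells and acts through its receptor Cxcr4. The p38 kinases are known to act upstream of several inflammatory chemokines.

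Total counts ranged from 21403189 to 40627138 per library. Mapk13, the gene of p38δ (chromosome 17, 28987747 to 28999207), held 292, 5, 2, 1 and 4 counts in wild-type-labelled replicates 1 to 5. It held 12, 10, 10, 15 and 9 in knockout-labelled replicates 1 to 5. The edgeR log2 fold change was -1.76 with an adjusted p of 0.78. Without wild-type-labelled replicate 1 it was 2.13 ± 0.41 SE, higher in the knockout-labelled libraries (adjusted p = 0.0443 by edgeR). The gene therefore did not bear out the labels, and directions below are between libraries as labelled. Sample titles carry a different prefix in each group, so a cohort that went with the prefix cannot be told apart from genotype. Replicates are not stated to be separate animals, so p-values measure only the spread between these samples. Wild-type-labelled replicate 1 stood apart: its summed lung and airway markers were 867 CPM (counts per 1000000, scaled to library size) against 0.358 to 76.8 in the remaining libraries. Its macrophage and monocyte markers summed to 889 CPM against 193 to 294, and its B and plasma cell markers to 290 CPM against 1.43 to 47.5. It was also highest in atrial cardiomyocyte (1483 against 81.6 to 367 CPM) and mesothelial markers (154 against 20.5 to 53.8 CPM). The same held for fibroblast (1605 against 695 to 956 CPM) and mast cell markers (24.0 against 3.40 to 7.43 CPM). Its ventricular cardiomyocyte markers were the lowest, 18458 against 24605 to 55785 CPM, and the highest sum was in knockout-labelled replicate 4. Knockout-labelled replicate 2 had the highest T and natural killer cell markers, 22.3 CPM against 1.05 to 6.37, and the highest thymus markers, 6.06 CPM against 0 to 0.923. Log2 fold changes of the members described one by one are given with and without wild-type-labelled replicate 1.

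None of the 32 tested members passed the test between the groups after adjustment over all 16700 genes tested (edgeR quasi-likelihood test, n = 5 per group). Over all genes the same rule called 0.353%. With wild-type-labelled replicate 1 left out it called 0 of 32 members and 0.446% of all genes, and DESeq2 called 0 of 32 and 0.707%. At an unadjusted p under 0.05, 5 members were reached against 6.86% of all genes: Ccl27a, Ccl28, Cxcl10, Cxcl12 and Cxcl13. Without that library, 1 of the 32 was reached, Ccl27a, against 6.02% of all genes. In no tested member did the values of one group lie wholly above those of the other, which held for 1.78% of all genes.

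The direction of the fold changes turned on 1 library, wild-type-labelled replicate 1. With all 10 libraries, 25 of the 32 tested members had a log2 fold change (knockout-labelled over wild-type-labelled) below 0, with a median of -0.29. Over all genes 53.4% were below 0, and the median was -0.01. With it left out, 14 of 32 were below 0, against 49.1% of all genes, and the members' median was 0.08. That library held the highest level of 17 of the 32 tested members (53.1%, against 27.8% of all genes), and knockout-labelled replicate 2 that of 6 (18.8%, against 7.83%). The share of these differences that goes with the marker sums above was not tested.

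**Figure D1:**
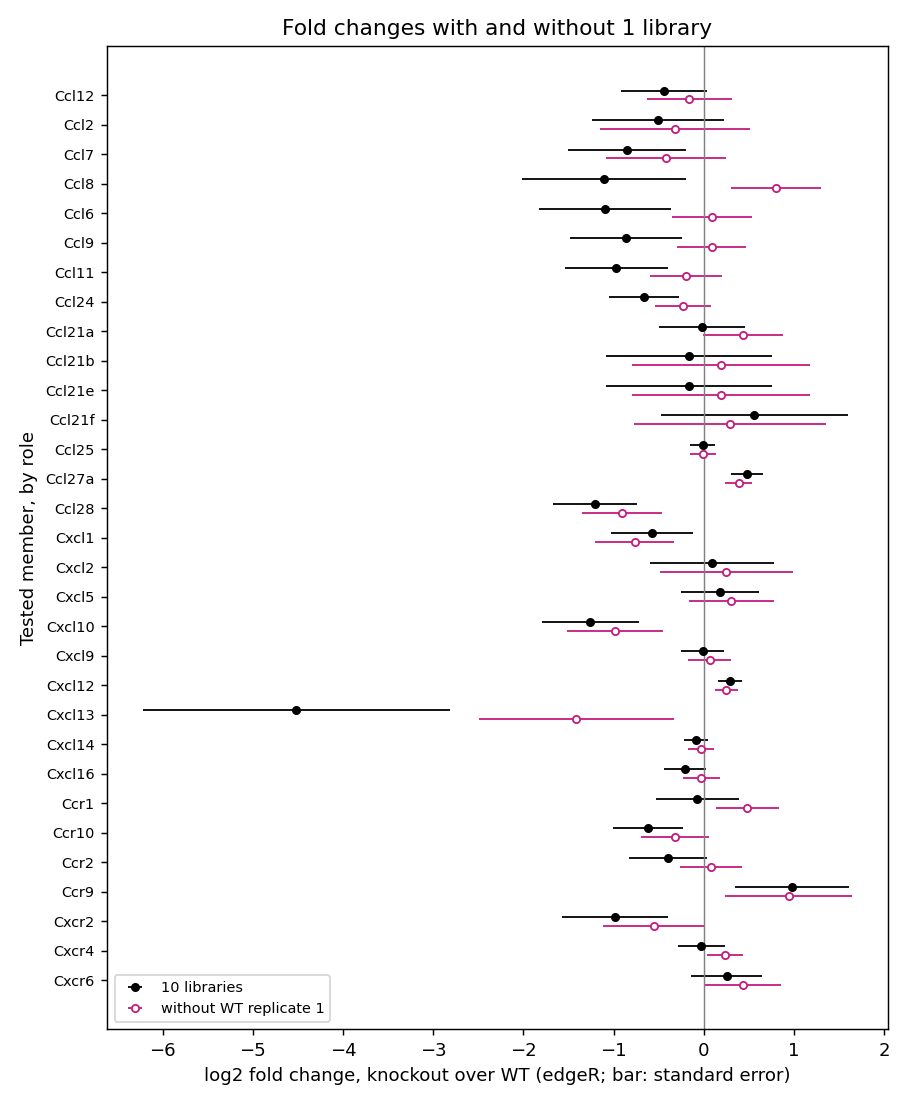
Log2 fold changes (knockout-labelled over wild-type-labelled, horizontal axis) of 31 tested members, ordered by role, with bars of 1 standard error. Filled points use 10 libraries and open points leave out wild-type-labelled replicate 1. Ccl8, Ccl6 and Ccl9 are among the members that cross 0 between these fits.

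**Figure D2:**
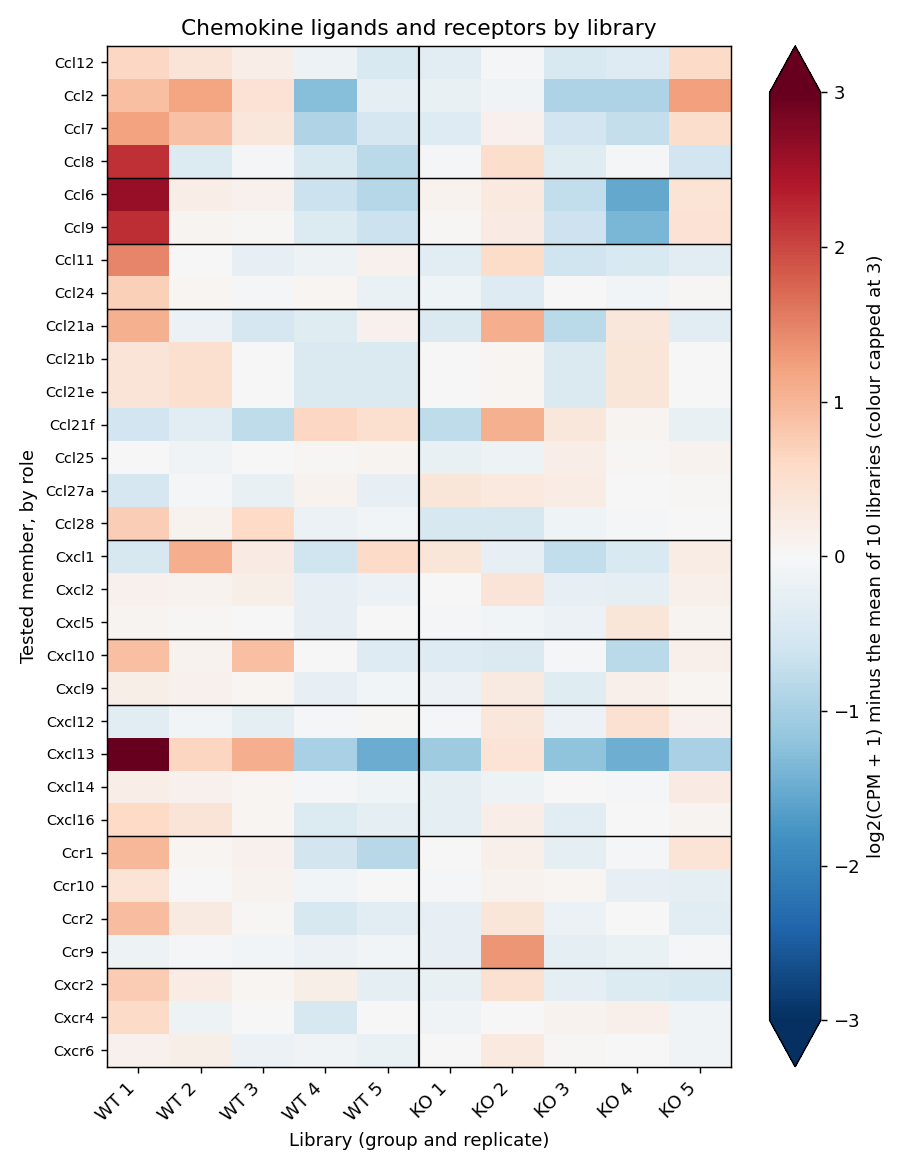
Level of 31 tested members (rows, grouped by role) in each library (columns) as log2(CPM + 1) minus the mean of the 10 libraries, with the colour capped at 3. The first column, wild-type-labelled replicate 1, is the highest in 16 of 31 rows.

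The CC ligands Ccl2, Ccl7, Ccl8 and Ccl12 lie in 1 cluster on chromosome 11, and their levels varied more among hearts of a group than between groups. Ccl2 (81926397 to 81928279), the main ligand of Ccr2, stood at 5.25, 6.57, 3.51, 0.385 and 1.72 CPM in wild-type-labelled replicates 1 to 5. In knockout-labelled replicates 1 to 5 it stood at 1.85, 2.08, 0.762, 0.746 and 6.80 CPM. The highest Ccl2 level was 17.7 times the lowest, and both groups held high and low hearts. The group means were 3.49 ± 2.52 and 2.45 ± 2.51 CPM (SD, n = 5 each; edgeR log2 fold change of -0.51 ± 0.73 SE with an adjusted p of 0.904). Single hearts moved this value: it was -0.32 without wild-type-labelled replicate 1, -0.16 without wild-type-labelled replicate 2 and -1.36 without knockout-labelled replicate 5, with adjusted p from 0.776 to 0.985. Ccl7 (81936532 to 81938351), a further Ccr2 ligand, had 4.74, 3.6, 2.14, 0.337 and 0.746 CPM in wild-type-labelled hearts and 0.905, 1.73, 0.666, 0.519 and 2.61 CPM in knockout-labelled hearts. Its 2 highest values were in the wild-type-labelled group, but so was its lowest (edgeR log2 fold change of -0.85 ± 0.66 SE with an adjusted p of 0.803, or -0.42 ± 0.66 SE without replicate 1 and -1.28 ± 0.69 SE without knockout-labelled replicate 5). Ccl12, a mouse monocyte chemokine related to Ccl2, had 2.13, 1.66, 1.31, 0.818 and 0.463 CPM against 0.630, 0.986, 0.476, 0.551 and 2.04 CPM. Its highest hearts, wild-type-labelled replicate 1 and knockout-labelled replicate 5, lay in different groups. The Ccl12 log2 fold change was -0.44 ± 0.48 SE, with -0.16 ± 0.47 SE and -0.94 ± 0.44 SE when either of these hearts was left out in turn. Ccl8 (82006007 to 82007625), a ligand made by tissue macrophages, had 8.57, 0.588, 1.06, 0.529 and 0.206 CPM against 1.02, 2.04, 0.619, 1.04 and 0.419 CPM. Wild-type-labelled replicate 1 stood at 14.4 times the mean of the others in its group. The Ccl8 log2 fold change was -1.11 ± 0.91 SE with that library and 0.80 ± 0.50 SE without it (adjusted p = 0.818 and 0.902 by edgeR), and DESeq2 gave no adjusted p for it.

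Ccl2 and its neighbour Ccl7, 8253 bases apart, went up and down together across hearts. Over the 10 libraries Pearson's r of log2(CPM + 1) was 0.93 (permutation p = 0.00014) and Spearman's rho was 0.95 (permutation p = 0.00016). Without the 2 libraries farthest from the median Ccl2 level, wild-type-labelled replicate 2 and knockout-labelled replicate 5, r was 0.94. It was 0.95 within the wild-type-labelled and 0.94 within the knockout-labelled hearts. This was 1 of 9 pairs of tested members that follow each other within 100000 bases, the Ccl21 copies left out, and both values had an adjusted permutation p of 0.00072 over the 18 values. The next pairs in the cluster were looser. For Ccl7 with Ccl11 r was 0.61 and rho 0.47 (permutation p = 0.045 and 0.18, adjusted 0.11 and 0.29), and r was 0.22 without wild-type-labelled replicates 1 and 2. For Ccl12 with Ccl8 r was 0.46 and rho 0.35 (permutation p = 0.17 and 0.33, adjusted 0.29 and 0.44), and r was 0.25 without wild-type-labelled replicate 1 and knockout-labelled replicate 5. The ratio of Ccl2 to Ccl7 in CPM still ranged from 1.11 to 2.61.

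Promoter sequences are shown for the neighbouring pairs whose levels moved together, Ccl2 with Ccl7 and Ccl6 with Ccl9, and below for Cxcl1 and Cxcl10. Each is the 250 bases before the start of the canonical transcript, 5′ to 3′ on the gene's strand, read from GRCm39, with motif matches on either strand in capitals. The motifs searched were the kappaB motif of NF-kappaB, GAAA and GAAA with any 2 bases between for the interferon-stimulated response element (ISRE), TGANTCA for AP-1, GAGGAAGT for PU.1 and TATAAA for the TATA box. The kappaB motif can match 1 site on both strands, as can TGANTCA, which is its own reverse complement.
Ccl2 (chr11:81926147-81926396, plus strand): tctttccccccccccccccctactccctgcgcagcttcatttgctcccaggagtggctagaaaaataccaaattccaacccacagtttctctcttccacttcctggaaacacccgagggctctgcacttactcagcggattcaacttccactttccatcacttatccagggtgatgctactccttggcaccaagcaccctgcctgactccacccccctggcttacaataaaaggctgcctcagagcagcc
Ccl7 (chr11:81936282-81936531, plus strand): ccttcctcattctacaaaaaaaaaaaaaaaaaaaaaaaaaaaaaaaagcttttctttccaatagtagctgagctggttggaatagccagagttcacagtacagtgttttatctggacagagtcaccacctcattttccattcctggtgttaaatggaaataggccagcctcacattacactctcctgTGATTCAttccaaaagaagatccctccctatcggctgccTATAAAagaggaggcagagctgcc
Ccl6 (chr11:83483914-83484163, minus strand): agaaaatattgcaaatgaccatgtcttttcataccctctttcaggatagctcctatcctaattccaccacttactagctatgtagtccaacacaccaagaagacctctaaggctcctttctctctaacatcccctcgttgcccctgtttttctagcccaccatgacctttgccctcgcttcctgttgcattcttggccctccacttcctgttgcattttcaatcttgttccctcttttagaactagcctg
Ccl9 (chr11:83469468-83469717, minus strand): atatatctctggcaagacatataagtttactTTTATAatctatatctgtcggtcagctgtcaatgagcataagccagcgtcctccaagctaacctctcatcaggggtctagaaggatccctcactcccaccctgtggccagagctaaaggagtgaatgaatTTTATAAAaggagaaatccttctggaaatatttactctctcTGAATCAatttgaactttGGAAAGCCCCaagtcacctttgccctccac
Ccl7 held TGANTCA at 63 to 57 bases and TATAAA at 24 to 19 bases before the start, and the Ccl2 and Ccl6 windows held none of the letters searched. Ccl9 held a kappaB match at 30 to 21 bases, TGANTCA at 48 to 42 bases, and TATAAA at 219 to 214 and, overlapping on both strands, at 89 to 82 bases. So neither pair shared a match within these windows. A kappaB match was in 6 of the 32 tested members' windows, in Ccl9, Cxcl1, Cxcl2, Cxcl5, Cxcl10 and Ccr1, and in 7.62% of the windows of 21770 protein-coding genes. ISRE matches were in 2 of 32 and 3.32% of all, AP-1 in 3 and 6.17%, PU.1 in 1 and 2.08%, and TATAAA in 7 and 11.9%. A match describes letters only and is not a measured binding site.

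Ccl6 and Ccl9, CC ligands of Ccr1 made by macrophages and other myeloid cells, were among the CC ligands of highest mean level per kilobase. Ccl6 (chromosome 11, 83478708 to 83483913) stood at 159, 29.3, 27.9, 15.9 and 13.6 CPM in wild-type-labelled replicates 1 to 5 and at 27.5, 30.9, 14.8, 8.14 and 33.8 CPM in knockout-labelled replicates 1 to 5. Ccl9 (83463745 to 83473161) stood at 74.2, 16.3, 15.8, 11.3 and 9.44 CPM and at 15.6, 18.4, 9.52, 5.29 and 21.1 CPM in the same order. In both genes wild-type-labelled replicate 1 was far above every other heart, at 7.33 and 5.62 times the mean of the others in its group, and knockout-labelled replicate 4 was the lowest. The group means of Ccl6 were 49.1 ± 61.7 and 23.0 ± 11 CPM, or 21.7 ± 8.11 CPM in the wild-type-labelled group without replicate 1 (n = 4). The Ccl6 log2 fold change was -1.10 ± 0.73 SE with all libraries and 0.09 ± 0.44 SE without that library (adjusted p = 0.769 and 0.989 by edgeR). Ccl9 gave -0.87 ± 0.62 SE and 0.09 ± 0.38 SE (adjusted p = 0.787 and 0.988 by edgeR).

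The order of the 10 hearts was the same for both genes. Pearson's r of log2(CPM + 1) was 0.996 and Spearman's rho was 1 (permutation p = 1e-05 for each, the smallest the permutations can give, and 9e-05 after adjustment over the 18 values). Without wild-type-labelled replicate 1 and knockout-labelled replicate 4 r was 0.98. The genes are 5547 bases apart and their transcripts were 68.35% identical over the best local alignment. All 16 macrophage and monocyte markers were tested and 15 were highest in wild-type-labelled replicate 1. Per CPM of summed markers, Ccl6 ranged from 0.0405 in knockout-labelled replicate 4 to 0.179 in wild-type-labelled replicate 1, with a median of 0.102. In bulk tissue, fewer cells of a type and less RNA per cell cannot be told apart. The macrophage inflammatory ligands Ccl3, Ccl4 and Ccl5 were near the detection limit, with 24 counts for Ccl3, 14 for Ccl4 and 36 for Ccl5 over all 10 libraries.

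**Figure D3:**
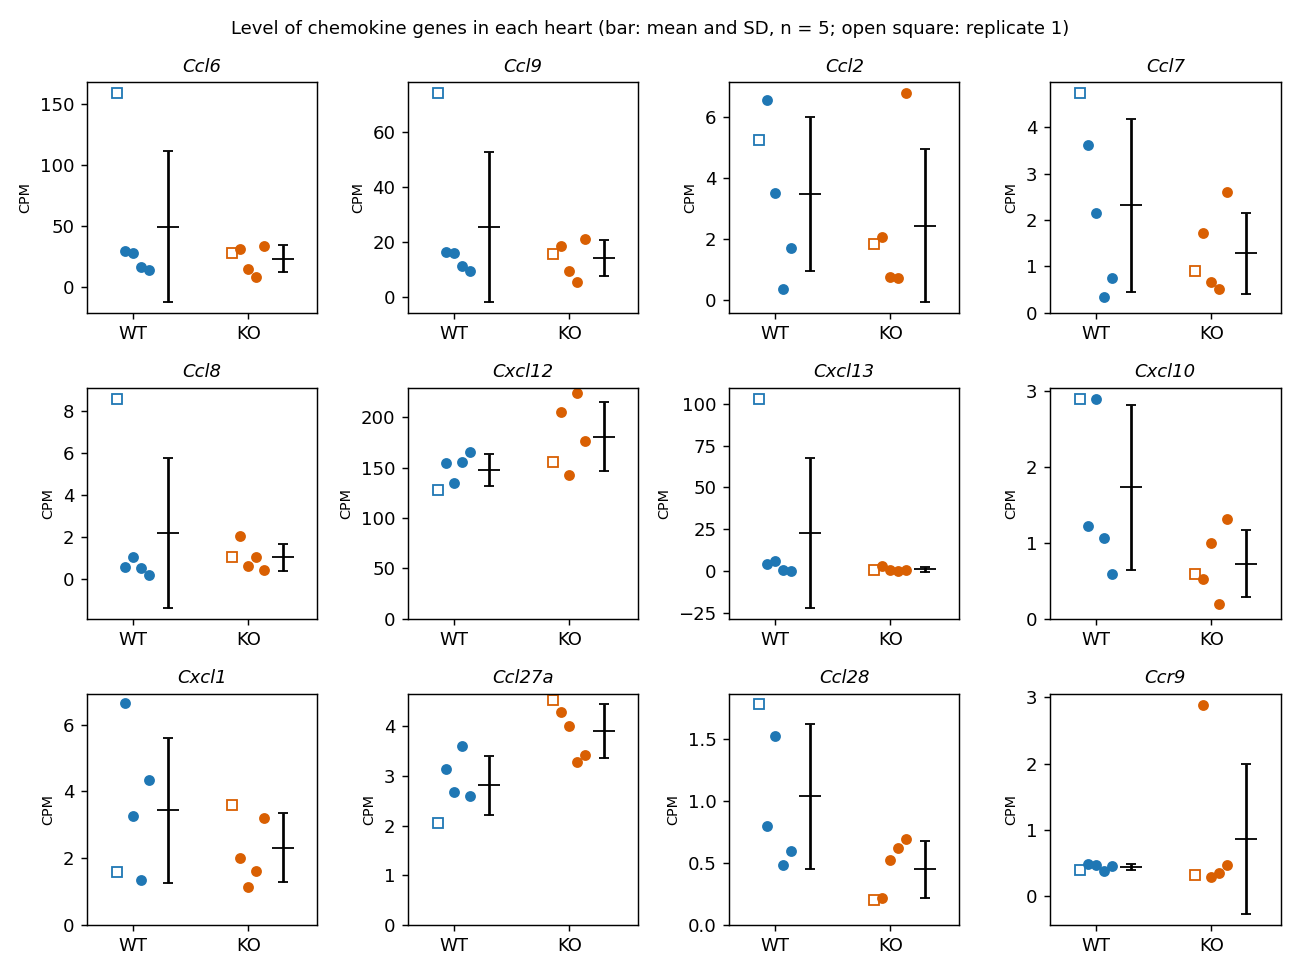
CPM (vertical axis of each panel, linear) of 12 members in each heart, with wild-type-labelled libraries in blue and knockout-labelled in orange, and the mean and SD of n = 5 beside the points. Open squares are replicate 1 of each group. Ccl6, Ccl9, Ccl8 and Cxcl13 each have 1 wild-type-labelled heart far above the rest, and the Ccr9 panel 1 knockout-labelled heart.

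Eotaxins attract eosinophils through Ccr3, and both measured here were low. Ccl11 (eotaxin 1, chromosome 11, 81948618 to 81953781) had 5.40, 1.3, 0.932, 1.06 and 1.52 CPM in the wild-type-labelled hearts and 0.826, 2.39, 0.524, 0.681 and 0.809 CPM in the knockout-labelled ones. The first replicate of the wild-type-labelled group and the second of the knockout-labelled group were each far above their own group. Ccl11 had a log2 fold change of -0.97 ± 0.57 SE, and of -0.20 ± 0.40 SE without wild-type-labelled replicate 1 (adjusted p = 0.75 and 0.982 by edgeR). It was -1.53 ± 0.54 SE without knockout-labelled replicate 2 (adjusted p = 0.846 by edgeR). Ccl24 (eotaxin 2, chromosome 5) had 1.76, 0.767, 0.653, 0.770 and 0.463 CPM against 0.551, 0.282, 0.666, 0.584 and 0.719 CPM, with 1 wild-type-labelled heart above the shared range of the rest. Its log2 fold change was -0.66 ± 0.38 SE, and -0.23 ± 0.31 SE without that heart, replicate 1. Ccr3 itself held 27 counts over all libraries, 11 of them in knockout-labelled replicate 2. Ccl17 and Ccl22, ligands of Ccr4, were found mostly in wild-type-labelled replicate 1 and knockout-labelled replicate 2. Of 43 Ccl22 counts 32 were in knockout-labelled replicate 2 and 9 in wild-type-labelled replicate 1, and Ccl17 had 8 counts in wild-type-labelled replicate 1, 4 in knockout-labelled replicate 2 and none elsewhere. Ccr4 held 23 of its 25 counts in knockout-labelled replicate 2, the library with the highest thymus and T cell markers.

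Among homing and barrier chemokines, Ccl25 varied least over the hearts. This ligand of Ccr9 had 3.36, 3.04, 3.39, 3.46 and 3.55 CPM in wild-type-labelled hearts and 2.71, 2.89, 3.95, 3.41 and 3.68 CPM in knockout-labelled hearts. The groups overlapped fully (3.36 ± 0.193 and 3.33 ± 0.522 CPM, edgeR log2 fold change of -0.01 ± 0.14 SE with an adjusted p of 0.988, and -0.01 ± 0.15 SE without wild-type-labelled replicate 1). Ccl27a, a skin-homing ligand of Ccr10 (chromosome 4, 41769467 to 41774639), had the smallest unadjusted p of the members. It stood at 2.04, 3.14, 2.67, 3.61 and 2.60 CPM in wild-type-labelled hearts and at 4.52, 4.30, 4, 3.28 and 3.41 CPM in knockout-labelled hearts. Wild-type-labelled replicate 4 lay above 2 knockout-labelled hearts, and the remaining values were separate. Its log2 fold change was 0.48 ± 0.17 SE with an adjusted p of 0.642 by edgeR, and 0.38 ± 0.15 SE without wild-type-labelled replicate 1 (adjusted p = 0.723 by edgeR). The exact two-sided permutation test on log2(CPM + 1) gave p = 0.0317, and 0.0556 without that library. Ccl28, a mucosal ligand of Ccr10 (chromosome 13, 120085355 to 120115895), had 1.78, 0.793, 1.52, 0.481 and 0.592 CPM against 0.197, 0.211, 0.524, 0.616 and 0.689 CPM. The 3 highest and the 2 lowest hearts were in opposite groups, and those between were mixed. Ccl28 had a log2 fold change of -1.21 ± 0.46 SE and, without wild-type-labelled replicate 1, -0.91 ± 0.44 SE (adjusted p = 0.674 and 0.846 by edgeR). Ccl25 shares its locus with Elavl1 and Ccl27a shares its own with Il11ra1. Since the strand setting is not given in the sources used here, reads of such overlapping genes may not be told apart.

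Ccl21, which guides dendritic cells and T cells into lymphatic vessels through Ccr7, is present in several near-identical copies on chromosome 4. Ccl21a (42772859 to 42773995) had 10.1, 3.73, 2.73, 3.13 and 4.81 CPM in wild-type-labelled hearts and 2.95, 10.3, 2.05, 5.77 and 3.20 CPM in knockout-labelled hearts. Each group held 1 heart near 10 CPM, wild-type-labelled replicate 1 and knockout-labelled replicate 2. The means were 4.91 ± 3.03 and 4.86 ± 3.35 CPM (edgeR log2 fold change of -0.02 ± 0.48 SE with an adjusted p of 0.994), and the fold change was 0.43 ± 0.44 SE without wild-type-labelled replicate 1. Ccl21b and Ccl21e, whose canonical transcripts were identical over 869 bases, had the same count in each library, from 0 to 34. Ccl21f, which matched Ccl21b over all of its 837 bases, had 0.132, 0.358, 0, 1.59 and 1.36 CPM against 0, 2.54, 1.14, 0.779 and 0.449 CPM, and Ccl21d was at 0. Hearts without Ccl21f reads were found in both groups, and its log2 fold change was 0.56 ± 1.04 SE, or 0.29 ± 1.07 SE without wild-type-labelled replicate 1. How reads were divided among these copies is an estimate, so their sum is the firmer value. The 5 copies summed to 11.8, 5.83, 3.42, 4.72 and 6.17 CPM in wild-type-labelled hearts and 3.66, 13.6, 3.19, 7.98 and 4.31 CPM in knockout-labelled hearts (exact two-sided permutation p = 0.929). The summed lymphatic endothelial markers were 254 CPM in wild-type-labelled replicate 1. They were 152 to 171 CPM in the other wild-type-labelled hearts and 121 to 164 CPM in knockout-labelled hearts, ranges that overlapped. These 7 markers, all tested, include Ccl21a itself. A log2 fold change below 0 was found for 5 of them (median -0.33, or -0.16 without wild-type-labelled replicate 1). A single one was called, Mmrn1, at 15.1 ± 3.77 against 0.0139 ± 0.0193 CPM (adjusted p = 8.94e-08 by edgeR). Ccl19, the further Ccr7 ligand, had 61 counts over the wild-type-labelled hearts and 3 over the knockout-labelled hearts, with 38 of the 64 in wild-type-labelled replicate 1. Ccr7 had 22 counts in that library, 25 in knockout-labelled replicate 2 and at most 5 in any other.

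Of the neutrophil-attracting CXC ligands, Cxcl1 was measured at a few CPM and Cxcl2 and Cxcl5 below 1 CPM. Cxcl1 (chromosome 5, 91039094 to 91040974) stood at 1.58, 6.65, 3.26, 1.35 and 4.35 CPM in wild-type-labelled replicates 1 to 5 and at 3.58, 2.01, 1.14, 1.62 and 3.20 CPM in knockout-labelled replicates 1 to 5. Unlike the macrophage ligands it was not high in wild-type-labelled replicate 1, and its highest heart was wild-type-labelled replicate 2. Its log2 fold change was -0.57 ± 0.45 SE and, without replicate 1, -0.77 ± 0.44 SE (adjusted p = 0.807 and 0.875 by edgeR). Without replicate 2 of that group it was -0.19 ± 0.42 SE (adjusted p = 0.954 by edgeR). Cxcl2 had 0.351, 0.332, 0.404, 0.0481 and 0.103 CPM against 0.236, 0.634, 0.0476, 0.0324 and 0.389 CPM, and both groups reached from under 20 counts down to 1. Cxcl5 had 0.373, 0.332, 0.311, 0.0962 and 0.283 CPM against 0.236, 0.211, 0.143, 0.649 and 0.359 CPM, with overlapping groups. The log2 fold changes of Cxcl2 and Cxcl5 were 0.09 ± 0.69 and 0.18 ± 0.43 SE, or 0.25 ± 0.74 and 0.30 ± 0.47 SE without wild-type-labelled replicate 1. Their receptor Cxcr2, carried by neutrophils, had 1.67, 0.844, 0.653, 0.770 and 0.283 CPM against 0.354, 1.16, 0.286, 0.195 and 0.150 CPM. Wild-type-labelled replicate 1 and knockout-labelled replicate 2 were its highest hearts, and these also had the highest neutrophil marker sums, 15.2 and 22.2 CPM against 2.64 to 9.11 CPM. The Cxcr2 log2 fold change was -0.98 ± 0.59 SE, or -0.55 ± 0.56 SE without wild-type-labelled replicate 1 (adjusted p = 0.75 and 0.942 by edgeR). It was -1.80 ± 0.51 SE without knockout-labelled replicate 2 and -1.38 ± 0.43 SE without both (adjusted p = 0.688 and 0.674 by edgeR).

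The promoter windows of Cxcl1 and Cxcl10 are shown because they held kappaB matches and both genes are textbook targets of NF-kappaB.
Cxcl1 (chr5:91038844-91039093, plus strand): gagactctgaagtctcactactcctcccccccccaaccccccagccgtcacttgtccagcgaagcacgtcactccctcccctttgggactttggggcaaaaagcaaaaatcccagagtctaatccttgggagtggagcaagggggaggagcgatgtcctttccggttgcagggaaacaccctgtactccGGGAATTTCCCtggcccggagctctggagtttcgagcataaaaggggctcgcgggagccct
Cxcl10 (chr5:92496749-92496998, minus strand): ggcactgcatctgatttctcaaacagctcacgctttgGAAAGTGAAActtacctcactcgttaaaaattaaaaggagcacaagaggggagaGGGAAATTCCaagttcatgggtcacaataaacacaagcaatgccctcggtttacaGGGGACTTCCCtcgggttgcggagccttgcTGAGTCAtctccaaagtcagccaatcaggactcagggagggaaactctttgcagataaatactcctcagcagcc
In Cxcl1 the kappaB motif matched overlapping letters on both strands between 61 and 51 bases before the start. In Cxcl10 it matched at 159 to 150 bases and, in overlapping matches, between 104 and 94 bases. Cxcl10 also held an ISRE match at 213 to 204 bases and TGANTCA at 74 to 68 bases.

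The Cxcr3 ligands Cxcl9 and Cxcl10, are both induced by interferon and were both measured near 1 CPM. Cxcl10 (chromosome 5, 92494497 to 92496748) had 2.90, 1.23, 2.89, 1.06 and 0.592 CPM in wild-type-labelled hearts and 0.590, 0.528, 1, 0.195 and 1.32 CPM in knockout-labelled hearts. Wild-type-labelled replicates 1 and 3 were far above the other 8 hearts, whose values overlapped. Its means were 1.73 ± 1.09 and 0.726 ± 0.437 CPM (edgeR log2 fold change of -1.26 ± 0.54 SE with an adjusted p of 0.711; exact two-sided permutation p = 0.0952). Without wild-type-labelled replicate 1 the log2 fold change was -0.98 ± 0.54 SE (adjusted p = 0.874 by edgeR). Cxcl9 (92469206 to 92475945) had 1.82, 1.74, 1.58, 1.11 and 1.36 CPM against 1.22, 2.01, 0.952, 1.75 and 1.62 CPM, with groups that overlapped over most of their range. Its log2 fold change was -0.01 ± 0.24 SE (adjusted p = 0.992 by edgeR), and 0.06 ± 0.24 SE without wild-type-labelled replicate 1. Between the 2 genes r was 0.12 and rho -0.01 (permutation p = 0.75 and 1, adjusted 0.8 and 1), and r was 0.15 without wild-type-labelled replicate 4 and knockout-labelled replicate 3. Of 19 interferon-stimulated genes tested, 0 were called by edgeR, 9 had an unadjusted p under 0.05 (6.86% of all genes did), and 18 were highest in wild-type-labelled replicate 1 (27.8% of all genes were). Without that library 0 were called, 8 had an unadjusted p under 0.05 (6.02% of all genes), and their median log2 fold change was -0.34 in place of -0.68. In each of the fits with and without that library 18 of these genes lay below 0, against 53.4% and 49.1% of all genes. Among them Cmpk2 had 9.45 ± 1.35 against 6.47 ± 0.867 CPM, Gbp2 26.3 ± 10.7 against 15.5 ± 2.07 CPM and Ifit3 41.2 ± 27.7 against 17.1 ± 5.29 CPM. Their log2 fold changes were -0.55, -0.76 and -1.27, and -0.45, -0.47 and -0.76 without wild-type-labelled replicate 1. Cxcl11 had 11 counts in all, 7 of them in wild-type-labelled replicate 1, and Cxcr3 had 36, 16 of them there. Cxcl10 lies within the locus of Art3, so part of its counts is uncertain.

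Cxcl12 had the highest mean CPM of the chemokine genes. It encodes stromal cell-derived factor 1, which holds progenitor and immune cells in place through Cxcr4. Cxcl12 (chromosome 6, 117144945 to 117158328) stood at 128, 154, 135, 156 and 166 CPM in wild-type-labelled hearts and at 155, 206, 143, 224 and 177 CPM in knockout-labelled hearts. The 3 highest hearts were knockout-labelled and the 2 lowest were wild-type-labelled. The means were 148 ± 15.6 and 181 ± 34.0 CPM (edgeR log2 fold change of 0.29 ± 0.13 SE with an adjusted p of 0.715; exact two-sided permutation p = 0.103). Without wild-type-labelled replicate 1 the log2 fold change was 0.25 ± 0.13 SE (adjusted p = 0.852 by edgeR). Its receptor Cxcr4 had 3.45, 1.69, 1.99, 1.15 and 1.98 CPM against 1.77, 2.01, 2.24, 2.34 and 1.77 CPM, and the knockout-labelled values lay inside the wild-type-labelled range. Its log2 fold change was -0.03 ± 0.26 SE, or 0.23 ± 0.20 SE without wild-type-labelled replicate 1. Ackr3, the scavenging receptor that takes up Cxcl12, had 32.8 ± 1.88 against 29.4 ± 4.08 CPM (edgeR log2 fold change of -0.16 with an adjusted p of 0.75).

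Cxcl14, an epithelial and stromal chemokine, and Cxcl16, a membrane-bound ligand of Cxcr6, were moderate and even. Cxcl16 overlaps Med11 and Zmynd15, and Cxcr6 overlaps Fyco1, so the counts of both are uncertain. Cxcl14 had 6.48, 6.14, 5.72, 5.20 and 4.94 CPM against 4.33, 4.86, 5.57, 5.29 and 6.74 CPM. Cxcl16 had 7.80, 6.57, 5, 3.37 and 3.70 CPM against 3.82, 5.67, 3.57, 4.74 and 5.09 CPM. In both the groups overlapped, with log2 fold changes of -0.09 ± 0.14 and -0.21 ± 0.23 SE, or -0.03 ± 0.14 and -0.03 ± 0.21 SE without wild-type-labelled replicate 1. Cxcr6, a receptor of resident T cells, had 0.461, 0.511, 0.186, 0.241 and 0.180 CPM against 0.354, 0.634, 0.381, 0.324 and 0.240 CPM, also overlapping (log2 fold change 0.25 ± 0.39 SE, or 0.43 ± 0.42 SE without that library).

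Cxcl13, which attracts B cells through Cxcr5, varied most of the tested members that had reads in every heart. Cxcl13 (chromosome 5, 96104810 to 96108927) stood at 103, 3.96, 5.78, 0.625 and 0.129 CPM in wild-type-labelled replicates 1 to 5 and at 0.511, 3.24, 0.381, 0.162 and 0.629 CPM in knockout-labelled replicates 1 to 5. Its highest level was 801 times its lowest, and both extremes were in the wild-type-labelled group. Wild-type-labelled replicate 1 held 39.3 times the mean of the others in its group. The fitted log2 fold change of -4.52 ± 1.70 SE did not pass (adjusted p = 0.684 by edgeR; exact two-sided permutation p = 0.167). It was -1.41 ± 1.08 SE without that library (adjusted p = 0.917 by edgeR), and DESeq2 gave no adjusted p for the gene. The 3 hearts with the highest B and plasma cell markers, at 290, 47.5 and 12 CPM, were wild-type-labelled replicate 1, knockout-labelled replicate 2 and wild-type-labelled replicate 3. These were among the 4 hearts with the highest Cxcl13, the other being wild-type-labelled replicate 2 with markers of 1.43 CPM. Cxcr5 held 39 of its 60 counts in wild-type-labelled replicate 1. The lung chemokines Cxcl17 and Cxcl15 went the same way, with 392 of 436 and 92 of 97 counts in wild-type-labelled replicate 1. Wild-type-labelled replicate 3, second in lung and airway markers at 76.8 CPM, was second for Cxcl17 with 29 counts. Neither gene passed the filter on low counts. The part of lung, airway or lymphoid RNA in these values was not tested.

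**Figure D4:**
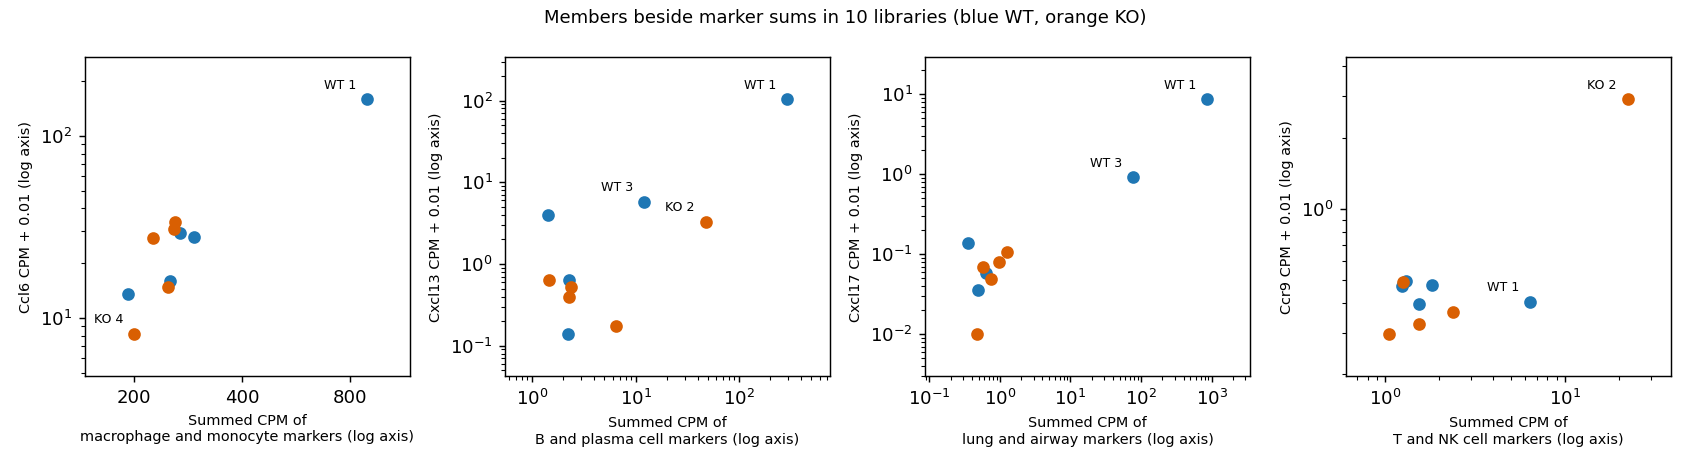
CPM of 1 member plus 0.01 (vertical, log axis) against the summed CPM of a marker list (horizontal, log axis) in 10 libraries, blue for wild-type-labelled and orange for knockout-labelled. Ccl6, Cxcl13 and Cxcl17 are highest in WT 1, which also has the highest macrophage, B cell and lung marker sums, and Ccr9 is highest in KO 2, which has the highest T cell sum.

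CC receptors carried by monocytes and macrophages were measured at a few CPM. Ccr2, the receptor of Ccl2, had 3.29, 1.71, 1.31, 0.625 and 0.798 CPM in wild-type-labelled hearts and 0.905, 1.94, 1, 1.3 and 0.779 CPM in knockout-labelled hearts. Ccr1, the receptor of Ccl6 and Ccl9, had 4.72, 2.02, 2.14, 0.962 and 0.617 CPM against 1.85, 2.18, 1.38, 1.75 and 2.85 CPM. In both receptors wild-type-labelled replicate 1 was the highest, and the knockout-labelled values lay within the wild-type-labelled range. The log2 fold changes were -0.40 ± 0.43 and -0.07 ± 0.46 SE, and without that library 0.07 ± 0.34 and 0.48 ± 0.35 SE (adjusted p from 0.862 to 0.989 by edgeR over both fits).

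Ccr9 guides developing T cells in the thymus and T cells of the gut. It had 0.395, 0.486, 0.466, 0.385 and 0.463 CPM in wild-type-labelled hearts and 0.315, 2.89, 0.286, 0.357 and 0.479 CPM in knockout-labelled hearts. All but knockout-labelled replicate 2 lay below 0.5 CPM, and that heart stood at 8.04 times the mean of the others in its group. The log2 fold change of 0.98 ± 0.63 SE did not pass (adjusted p = 0.765 by edgeR), and DESeq2 gave no adjusted p. It was 0.94 ± 0.70 SE without wild-type-labelled replicate 1. Without knockout-labelled replicate 2 the log2 fold change was -0.28 ± 0.27 SE (adjusted p = 0.884 by edgeR). The gene overlaps Lztfl1 and Slc6a20a, so its counts are uncertain. Ccr10, the receptor of Ccl27a and Ccl28, ranged from 0.180 to 0.901 CPM with overlapping groups. It overlaps Cntnap1, so its counts are uncertain too.

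On a scale that allows genes to be compared, CPM per kilobase of canonical transcript, Cxcl12 led with 29.0 ± 5.37 (SD, n = 10), followed by Ccl6 with 25.0 ± 30.6. Cxcl12 lay above Ccl6 in 9 of 10 hearts, the exception being wild-type-labelled replicate 1. Cxcl13 ranked next by its mean of 10.3 but lay above the next gene, Ccl9 at 6.54 ± 6.56, in 1 heart. Ccl21a (5.67 ± 3.5), Ccl25 (3.71 ± 0.412), Ccl27a (3.68 ± 0.860) and Ccl2 (3.65 ± 2.99) followed; each of these 4 lay above the next in 5 or 6 of 10 hearts. The order also rests on the length used. Per kilobase of all annotated exons the means were 19.8 for Ccl6, 19.7 for Cxcl12, 1.24 for Ccl27a and 0.267 for Ccl25. Counts of Ccl25 and Ccl27a may also hold reads of the genes that share their loci. Wild-type-labelled replicate 1 set part of the order too. Over the other 9 hearts, per kilobase of canonical transcript, Cxcl12 stood at 29.7, Ccl6 at 15.6 and Ccl21a at 4.99. Ccl9 stood at 4.53 and Cxcl13 at 1.49, so Ccl9 then lay below Ccl21a. The most abundant receptors were Cxcr4 at 1.12 ± 0.326 and Ccr1 at 0.721 ± 0.400. Of the summed ligand level on this scale Cxcl12 made up 33.3% on average, from 6.91% in wild-type-labelled replicate 1 to 52.0% in knockout-labelled replicate 4. In wild-type-labelled replicate 1, Ccl6 made up 33.6% and Cxcl13 27.3%.

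**Figure D5:**
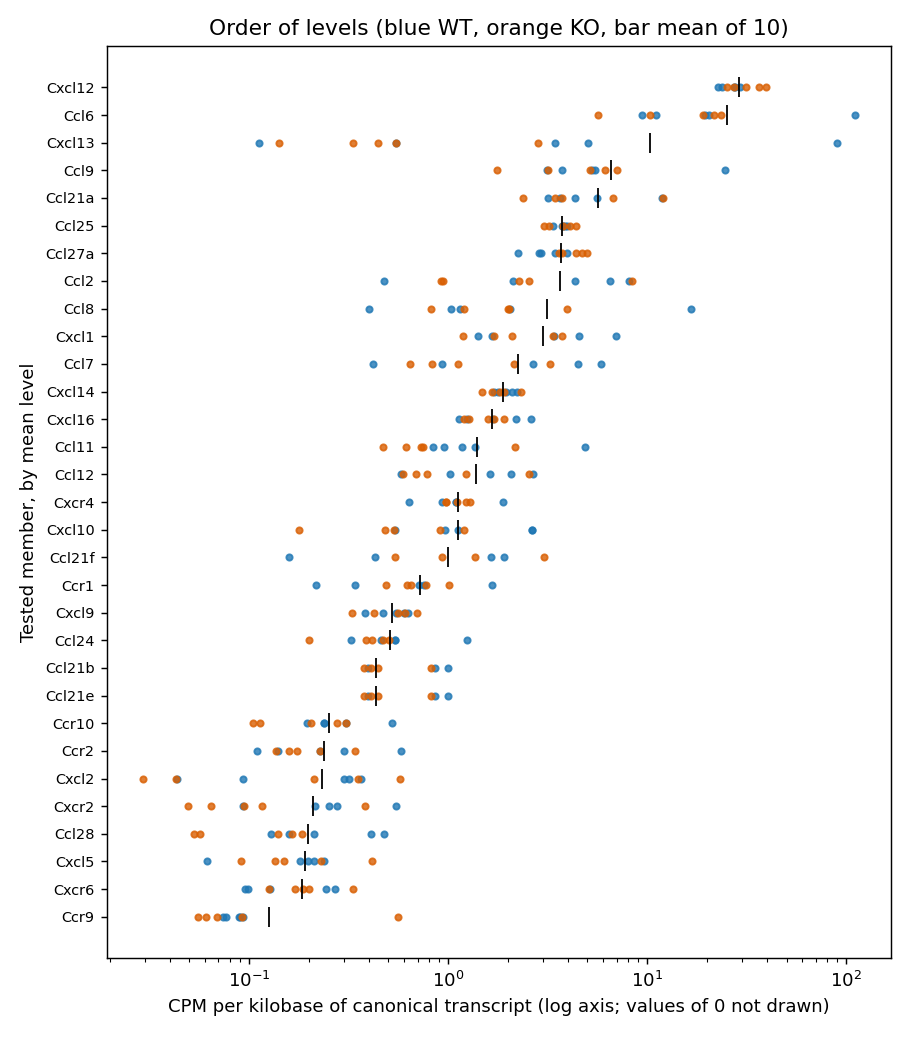
CPM per kilobase of canonical transcript (horizontal, log axis; values of 0 not drawn) of 31 tested members in order of their mean, which is the black bar. Points are libraries, blue for wild-type-labelled and orange for knockout-labelled. Cxcl12 and Ccl25 have narrow ranges and Cxcl13 the widest.

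The 25 members that did not pass the filter on low counts comprised 16 ligands and 9 receptors. Of these, Ccl26, Ccl21d and Ccl27b were at 0 in every library, which allows a level of up to 0.00957 CPM over all libraries (3 of 313574616 counts, counting error only). For Ccl21d and Ccl27b this says little, since their reads can be given to near-identical copies. Among the 22 with reads, 9 were highest in wild-type-labelled replicate 1, 10 in knockout-labelled replicate 2 and 3 in another library. Ccr6, a receptor of T cells and B cells, had 5, 0, 0, 0 and 1 counts in wild-type-labelled hearts and 3, 6, 4, 6 and 6 in knockout-labelled hearts. In CPM its knockout-labelled values all lay above the wild-type-labelled ones, but it was too low to enter the test. The nearest values were 0.118 CPM in knockout-labelled replicate 1 and 0.110 CPM in wild-type-labelled replicate 1. The share of genes with separate groups, 1.78%, was counted over tested genes only. Ccr6 lies on chromosome 17 (8454869 to 8475973), as does Mapk13 (28987747 to 28999207), and a link between their positions and these counts was not tested. The remaining ones, such as Cxcl3 with 7 counts, Cxcr1 with 7 and Ccl1 with 3, were near absence.

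Other genes of the pathway gave no call either. Of 12 further chemokines and atypical receptors, 7 were tested and 0 were called by edgeR, with 0 at an unadjusted p under 0.05. Pf4, a platelet and macrophage chemokine, had 6.14 ± 5.44 against 3.57 ± 0.695 CPM, and Cx3cr1, the fractalkine receptor, 0.817 ± 0.291 against 0.676 ± 0.170 CPM. The Pf4 log2 fold change was -0.79, and -0.09 without wild-type-labelled replicate 1. Of 27 genes of receptor signalling, all tested and among them the member Cxcr4, 0 were called and 0 had an unadjusted p under 0.05. With wild-type-labelled replicate 1 left out, 0 were called and 2 had an unadjusted p under 0.05. Those of smallest p in the fit of all libraries were the regulator of G protein signalling Rgs18 (1.01 ± 0.925 against 0.503 ± 0.200 CPM), the kinase Pik3cd (3.19 ± 1.12 against 4.25 ± 1.13 CPM) and the G protein subunit Gnai1 (6.30 ± 3.54 against 4.52 ± 0.811 CPM). Without wild-type-labelled replicate 1 the log2 fold changes went from -1.02 to -0.24 for Rgs18, from 0.40 to 0.63 for Pik3cd and from -0.48 to -0.07 for Gnai1. Of 25 upstream cytokines, receptors and transcription factors, 20 were tested, 0 were called, and 1 had an unadjusted p under 0.05. This was Irf7, an interferon regulatory factor, at 18.1 ± 8.85 against 10.5 ± 1.68 CPM, with a log2 fold change of -0.79 and of -0.44 without wild-type-labelled replicate 1. Tlr2 had 3.97 ± 1.41 against 2.92 ± 0.545 CPM and Nfkb2 12.5 ± 0.552 against 11.2 ± 1.25 CPM.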

How the data were processed

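The deposited table holds expected counts per gene for 10 whole-heart libraries, estimated by the authors with RSEM 1.3.0 after alignment with STAR 2.5.2 to GRCm39, per the submitters' processing notes. All its values were whole numbers. No source used here gives the annotation release or the strand setting. Of 78298 gene identifiers 78168 matched GENCODE vM39.

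The expected counts were tested with edgeR 4.0.16 in R 4.3.3: TMM scaling, filterByExpr with a minimum count of 10, and a robust quasi-likelihood fit with no covariate. Benjamini-Hochberg adjustment ran over all 16700 genes tested, with a threshold of 0.05. CPM are counts per 1000000 of TMM-scaled library size. Single genes were also tested by exact two-sided permutation of log2(CPM + 1) over all 252 assignments of libraries to groups, whose smallest p is 0.00794. Correlations used 100000 permutations. No 2 libraries were copies: the chi-square per degree of freedom of within-group pairs was 8.59 to 158. Alternatives used DESeq2 1.42.0, limma 3.58.1, other scalings and filters, and left-out libraries. Groups were read from the sample labels.

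The members, the role, pathway and marker lists and the tests were chosen with earlier results of these data known. Values in every library are given for members called by edgeR, members whose groups did not overlap, up to 4 tested members of highest mean CPM in each role list, and the 5 largest absolute fold changes. Other lists are named by called genes and up to 3 of smallest p. Promoter letters were read from GRCm39 at the canonical transcript starts. Of the tested members, 1 is counted in the totals but is not reported here by name or drawn.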

Additional observations from a re-analysis of the deposited data

Results flagged for a closer look

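Among the 29 named members, the highest or lowest heart of each group was compared with the rest of its group of 5 by Dixon's gap test at the 95% level, 58 groups in all. In 12 groups 1 heart lay apart by this test. A chance rate of about 1 in 20 groups holds for normal, independent values. CPM of genes that move together, such as Ccl6 and Ccl9, are not independent. The share of groups set apart over all genes was not computed, and some members were named for their large fold changes. In 7 of the 12 groups the heart was the same library, wild-type-labelled replicate 1. That library was the highest for 27.8% of all genes tested. It stood at 159 CPM for Ccl6, 74.2 CPM for Ccl9, 103 CPM for Cxcl13 and 8.57 CPM for Ccl8. It also stood at 5.40 CPM for Ccl11, 10.1 CPM for Ccl21a and 1.76 CPM for Ccl24. The same library had the highest macrophage, B cell and lung marker sums, and their part in these values was not tested.

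Knockout-labelled replicate 2 lay apart from its group in 4 genes, at 2.39 CPM for Ccl11, 3.24 CPM for Cxcl13, 2.89 CPM for Ccr9 and 1.16 CPM for Cxcr2. It had the highest T cell, thymus and neutrophil marker sums, and their part was not tested. Knockout-labelled replicate 5 lay apart for Ccl2, at 6.80 CPM.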

How the results depend on the processing

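No tested member was called under any of 20 alternative settings of scaling, filter, test or library, or at thresholds of 0.01 and 0.1. The lowest adjusted p of a tested member over these settings was 0.316. At an unadjusted p under 0.05 the edgeR test reached 5 of 32 members with all libraries and 11 of 54 with no filter, where it reached 5.53% of 43316 genes. The median log2 fold change of the tested members was -0.29, and it lay between -0.47 and -0.05 under other scalings, filters and tests. The lowest of these came from scaling by library totals alone, which moved the median of all genes to -0.12, and the highest from limma voom with quality weights. Leaving out 1 library gave medians from -0.49 to 0.08, the last without wild-type-labelled replicate 1. Without wild-type-labelled replicate 1 and knockout-labelled replicate 4 it was -0.01, and without the first and knockout-labelled replicate 2, a choice made after seeing the data, -0.06. Over 564 alternative fits of the 29 named members, 55 changed sign with no call on either side, and 9 members changed sign without wild-type-labelled replicate 1. A pseudocount of 0.5 in place of 1 changed 0 permutation calls. No paired analysis was possible because the labels give the groups no shared replicate numbers. Members of a few counts per library are limited by depth.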
